A study of Drosophila melanogaster with 21 samples.

Results

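The 8 genes described here are the germ plasm and maternal axis genes osk, nos, bcd, vas, tud, gcl, pgc and stau of Drosophila melanogaster, chosen by name. All 8 were among the 23932 features of the total RNA count table, and all 8 passed the filter on low counts that kept 10238 features for testing. The table of RNA bound by tagged protein held 2 of them, bcd and stau, among its 2168 genes.

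In the fly, the mother loads the egg with RNAs and proteins that lay out the body axes before the embryo's own genome is switched on. At the posterior pole, Oskar protein gathers the germ plasm, a cytoplasm rich in Vasa and Tudor in which RNAs for germ cell formation and for the posterior determinant Nanos are held and translated. At the anterior pole, localised bicoid RNA is the source of the Bicoid gradient. Because most of these RNAs are laid down in the ovary and are cleared or confined to the germ cells as development goes on, their level in whole embryos changes with embryo age.

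The series concerns topoisomerase 3 beta (gene Top3beta), a topoisomerase with activity on RNA besides its activity on DNA. For total RNA, 3 replicates were sequenced for each of 4 embryo genotypes, namely wild type, Top3b26, Y332F (a tyrosine to phenylalanine change) and delRGG (the protein without its RGG part). RNA recovered by immunoprecipitation (RIP) came from embryos carrying Top3b-eGFP (6 samples) or Top3b-Y332F-eGFP (3 samples), fusions to a green fluorescent protein. The labels do not give embryo age, the mothers' genotype, a driver of the tagged forms, the number of embryos per sample or whether replicates were separate collections, so p-values measure the spread between these samples, which may be technical.

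Total counts ran from 22400118 to 31125584 per library. Levels are given below as CPM (the count relative to the total count of the library, after TMM scaling). Wild type libraries held Top3beta at 114 ± 17.0 CPM and Top3b26 libraries at 22.1 ± 1.11 CPM (SD, n = 3, log2 fold change -2.37, edgeR adjusted p = 1.12e-06), while its level in Y332F (125 ± 19.1 CPM) and delRGG (134 ± 8.35 CPM) overlapped wild type. The libraries also differed in 22 markers of late embryos (muscle, cuticle and neuron genes). The summed marker level was 2751, 3736 and 8828 CPM in wild type replicates 1 to 3, between 154 and 431 CPM in Top3b26, between 365 and 680 CPM in Y332F, and 4202, 1310 and 358 CPM in delRGG replicates 1 to 3. Between 1 and 3 of the 22 markers were at 0 in a library, and all 19 markers that could be tested were called lower in Top3b26 and in Y332F against wild type, with 0 of 19 called in delRGG (edgeR). The genotypes Top3b26 and Y332F therefore cannot be told apart from their low marker level in these samples, and the delRGG libraries stand apart from each other. Eggshell and follicle cell markers summed to 13.8 CPM in Top3b26 replicate 3 and 35.1 CPM in Y332F replicate 3, against 0.190 to 0.934 CPM in the other libraries. Of 12 early zygotic (blastoderm) genes 11 were tested, with 3 called lower in Top3b26 and 0 called in Y332F or delRGG (edgeR). They summed to 73.0 to 99.6 CPM in wild type and 41.0 to 55.4 CPM in Top3b26. The sums were 67.5 to 83.4 CPM in Y332F and 44.8 to 157 CPM in delRGG.

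In embryos of the Top3b26 genotype, 7 of the 8 genes rose and 1, tud, fell against wild type. The changes were small, between 1.23-fold and 1.47-fold upward and 1.36-fold downward. A feature was called when its edgeR quasi-likelihood p, adjusted over all 10238 features, was under 0.05. By that rule 57.1% of all features were called, 23.5% as higher and 33.7% as lower, so that 8 of 8 called stands beside a background in which most features were called. The groups did not overlap for any of the 8 genes, nor for 71% of all features. The median log2 fold change of the 8 genes was 0.43, against -0.04 for all features, whose 90th percentile was 0.48. Since these are bulk samples, fewer cells of a type and less RNA per cell cannot be told apart.

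**Figure D1:**
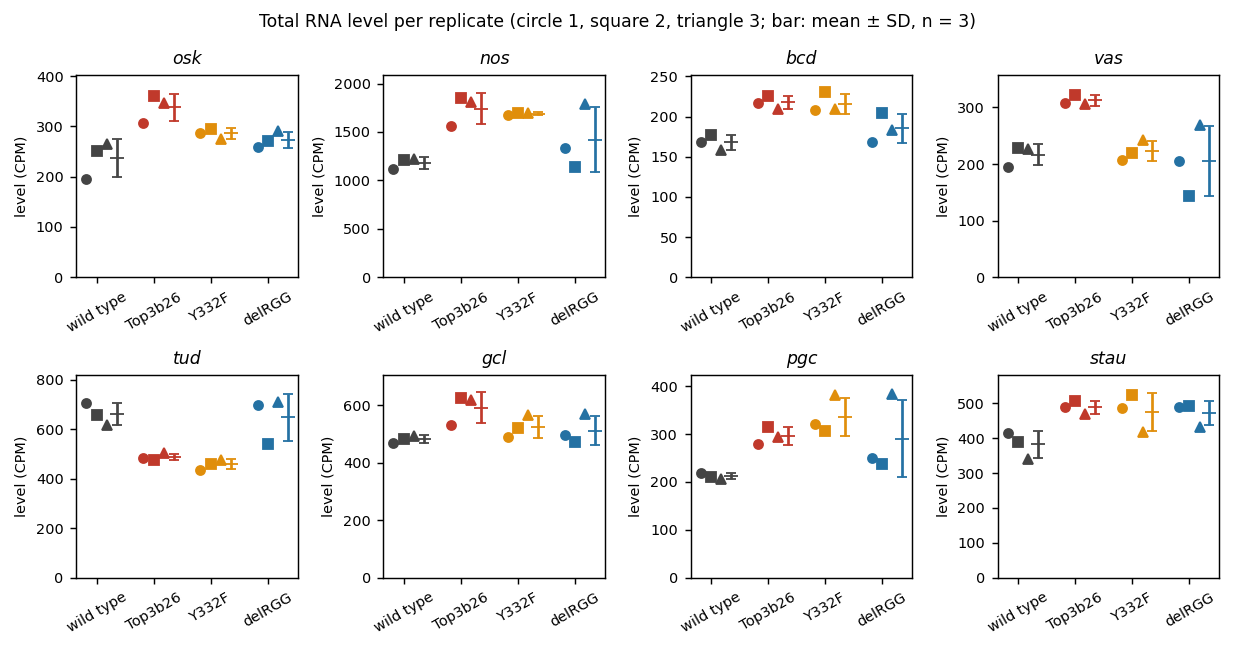
Level (CPM, vertical axis from 0) of each of the 8 genes in the 12 total RNA libraries, by genotype, with circles, squares and triangles for replicates 1, 2 and 3 and a bar for the mean ± SD (n = 3). Top3b26 lies above wild type for every gene except tud, which lies below it, and delRGG spreads most for nos, vas and pgc.

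Staufen and oskar stand at the head of germ plasm assembly. Staufen is a double-stranded RNA binding protein that acts in carrying osk RNA to the posterior pole and in anchoring bcd RNA at the anterior pole, and Oskar is the protein that gathers the germ plasm. The 3 wild type replicates held stau at 416, 390.2 and 340.4 CPM, and Top3b26 at 491, 506 and 468 CPM. Y332F gave 487, 523 and 417 CPM and delRGG gave 491, 493 and 433 CPM. All 9 mutant values lay above the 3 wild type values, although Y332F replicate 3 and the highest wild type library were almost level. The stau level rose by a log2 fold change of 0.35 (SE 0.10) in Top3b26 (edgeR adjusted p = 0.0122) and by 0.32 (SE 0.10) in Y332F (edgeR adjusted p = 0.0276). In delRGG the difference was 0.31 (SE 0.10), close to the other genotypes in size, but was not called (edgeR adjusted p = 0.110). Both calls were lost when the compared genotypes were fitted alone (edgeR adjusted p = 0.0612 and 0.0549), and the Y332F call was lost without Y332F replicate 1, without Y332F replicate 2 or without wild type replicate 3, with edgeR adjusted p between 0.0745 and 0.105. With total counts alone as scaling the Y332F difference was 0.23 and was not called (edgeR adjusted p = 0.0865).

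In wild type osk stood at 195, 250.2 and 266 CPM, and in Top3b26 at 307, 359.8 and 346 CPM. It was 288, 296 and 274 CPM in Y332F and 259, 270.2 and 290.0 CPM in delRGG. Wild type replicate 1 was the lowest library, Top3b26 was the highest group, and Y332F and delRGG lay between, with delRGG reaching into the wild type range. The rise in Top3b26 was 1.43-fold (log2 fold change 0.51, SE 0.11, edgeR adjusted p = 0.00367). In Y332F the groups did not overlap, but the log2 difference of 0.27 (SE 0.11) was not called (edgeR adjusted p = 0.0604) and was called in 7 of 13 alternative fits, among them DESeq2 (adjusted p = 0.0173). The annotation places an antisense RNA and a long noncoding RNA over osk, and the strand setting of the counting is not given in the sources used here. The osk counts may therefore hold reads of these neighbours or lack reads shared with them.

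Vasa and Tudor are protein components of the germ plasm: Vasa is a DEAD-box RNA helicase, and Tudor is a scaffold that binds methylated arginines of Piwi-family proteins. Their RNAs moved in opposite directions. Wild type libraries held vas at 195, 228 and 226 CPM, and Top3b26 libraries at 308, 323 and 307 CPM. Y332F gave 208, 219 and 242 CPM for vas, and delRGG gave 205, 143 and 268 CPM. All 3 Top3b26 libraries were above every other library, Y332F lay within or just above the wild type range, and delRGG held both the lowest library and one between wild type and Top3b26. The rise in Top3b26 was 1.44-fold (log2 fold change 0.53, SE 0.17, edgeR adjusted p = 0.0221), and its adjusted p was 0.0516 without wild type replicate 1. In Y332F the log2 difference from wild type was 0.04 (SE 0.17, edgeR adjusted p = 0.853). Set directly against Top3b26, Y332F was 0.49 lower on the log2 scale, a difference of -0.49 (SE 0.17) that was not called over the 4 genotypes (edgeR adjusted p = 0.146) and was called when these genotypes were fitted alone (edgeR adjusted p = 0.00361). The genes solo and vig overlap vas, so its counts are uncertain in the same way as those of osk.

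In wild type tud stood at 708, 659 and 617 CPM, and in delRGG at 696, 538 and 711 CPM. It was 484, 476 and 502 CPM in Top3b26 and 436, 461 and 477 CPM in Y332F. Every library of wild type and delRGG was above every library of Top3b26 and Y332F. The fall was 1.36-fold in Top3b26 (log2 fold change -0.44, SE 0.10, edgeR adjusted p = 0.00526) and 1.44-fold in Y332F (log2 fold change -0.53, SE 0.10, edgeR adjusted p = 0.00590). In delRGG the difference from wild type was -0.03 (SE 0.10, edgeR adjusted p = 0.869), with a sign that changed between fits. Among all features 38.3% had a lower log2 fold change than tud in Top3b26, and 34.9% in Y332F, so a fall of this size was common in these libraries. The annotation places no other gene over tud.

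Nanos, Germ cell-less and Polar granule component are made from RNAs held in the germ plasm. Nanos represses translation of maternal hunchback RNA in the posterior, Germ cell-less is needed for the forming germ cells to bud off, and Pgc holds transcription down in the early germ cells. For nos the wild type libraries read 1113, 1212 and 1222 CPM, and the Top3b26 libraries 1558, 1849.7 and 1810.0 CPM. Y332F gave 1674, 1693 and 1699 CPM for nos, and delRGG gave 1329.5, 1142 and 1794 CPM. Top3b26 and Y332F were above wild type in every library, and delRGG spread from within the wild type range to the Top3b26 range. The rise was 1.47-fold in Top3b26 (log2 fold change 0.56, SE 0.15, edgeR adjusted p = 0.00826) and 1.43-fold in Y332F (log2 fold change 0.51, SE 0.15, edgeR adjusted p = 0.0182). Without Y332F replicate 1 the second of these had an edgeR adjusted p of 0.0504. The genes CG11779 and Nsun5 overlap nos in the annotation.

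In wild type pgc stood at 219, 210.1 and 206 CPM, and in Top3b26 at 279.8, 316 and 294 CPM. It was 320.3, 306 and 381 CPM in Y332F and 249.7, 238 and 384 CPM in delRGG. All 9 mutant libraries lay above all 3 wild type libraries, which were close together, and delRGG replicate 3 was the highest of all. The rise was 1.58-fold in Y332F (log2 fold change 0.66, SE 0.16, edgeR adjusted p = 0.0112), a larger log2 fold change than that of 96.5% of all features, and 1.40-fold in Top3b26 (log2 fold change 0.48, SE 0.16, edgeR adjusted p = 0.0218). The Top3b26 call was lost without wild type replicate 3 (edgeR adjusted p = 0.0603) and without Top3b26 replicate 2 (edgeR adjusted p = 0.0558). In delRGG the log2 difference of 0.46 (SE 0.16) was not called (edgeR adjusted p = 0.126). The gene T3dh overlaps pgc.

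Wild type libraries held gcl at 467, 484 and 494 CPM and Top3b26 libraries at 531, 625 and 619 CPM, groups that did not overlap. Y332F (489, 522 and 565 CPM) and delRGG (496, 471 and 568 CPM) both overlapped wild type. The rise in Top3b26, 1.23-fold, was the smallest of the 7 (log2 fold change 0.30, SE 0.09, edgeR adjusted p = 0.0192). It was not called when libraries were scaled by total counts alone (edgeR adjusted p = 0.0605), and in Y332F the log2 difference was 0.13 (SE 0.09, edgeR adjusted p = 0.292). A small nucleolar RNA and CG30356 overlap gcl.

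Bicoid is the homeodomain protein that patterns the anterior of the embryo and represses translation of caudal RNA there. Wild type libraries held bcd at 168, 177 and 158 CPM, and Top3b26 libraries at 218, 226 and 209.7 CPM. It was 209, 230.1 and 209 CPM in Y332F and 168, 205 and 183 CPM in delRGG. Top3b26 and Y332F lay together above all wild type libraries, and delRGG lay between and overlapped wild type. The rise was 1.30-fold in Top3b26 (log2 fold change 0.38, SE 0.08, edgeR adjusted p = 0.00369) and 1.29-fold in Y332F (log2 fold change 0.36, SE 0.08, edgeR adjusted p = 0.00886). No other gene lies over bcd or stau in the annotation.

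Taking the 8 genes by genotype, 5 were called in Y332F against wild type, with nos, bcd, pgc and stau higher and tud lower. The background there was 43.5% of features called, 15.3% higher and 28.2% lower. That background of 4449 features was 1969 without wild type replicate 3, 2023 without Y332F replicate 2 and 2402 without Y332F replicate 1. The groups did not overlap for 6 of the 8 genes and for 57.2% of all features, and the median log2 fold change was 0.29 against -0.04 for all features, whose 90th percentile was 0.40. In delRGG against wild type 0 of the 8 were called by edgeR, with 5.87% of features called, 3.17% higher and 2.7% lower. These 601 features were 355 without wild type replicate 2, 361 without wild type replicate 3 and 944 without delRGG replicate 1. At an unadjusted p under 0.05 the count was 2 (pgc and stau), DESeq2 called the same 2, and these were also the 2 genes whose groups did not overlap, against 24.6% of all features. The median log2 difference in delRGG was 0.17 against -0.04 for all features, with a 90th percentile of 0.30. These comparisons share the wild type libraries, so their values are set side by side and are not independent of each other.

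**Figure D2:**
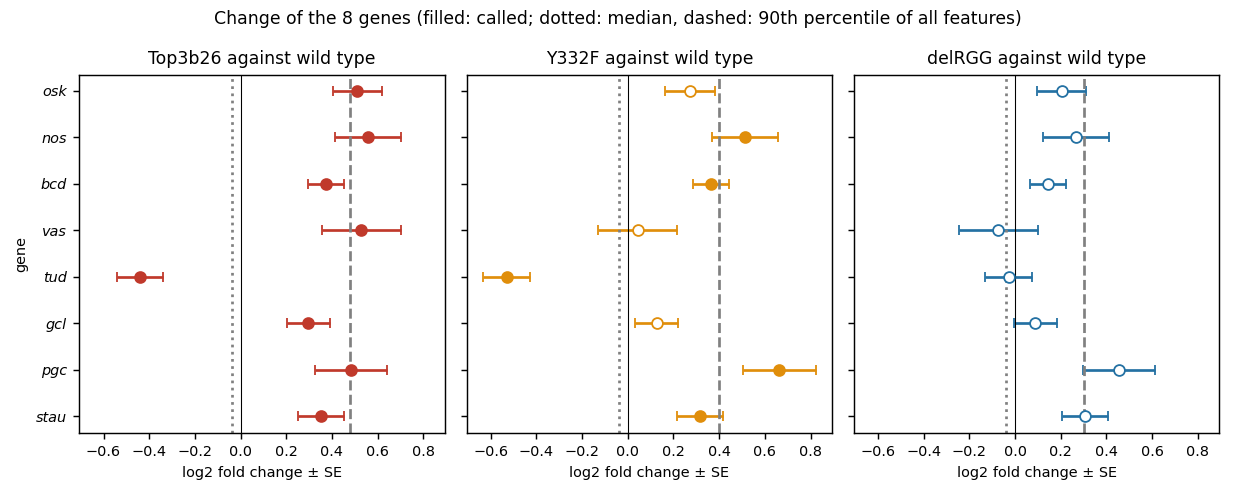
Log2 fold change ± SE of the 8 genes (rows) in Top3b26, Y332F and delRGG against wild type, with filled points where the edgeR adjusted p was under 0.05, a dotted line at the median and a dashed line at the 90th percentile of all features. All 8 points are filled in Top3b26, 5 in Y332F and 0 in delRGG, and tud alone lies clearly left of 0 in Top3b26 and in Y332F.

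Between the mutant genotypes, tud separated delRGG from both of the others. It was 1.33-fold higher in delRGG than in Top3b26 (log2 fold change 0.41, SE 0.10, edgeR adjusted p = 0.0180) and 1.42-fold higher than in Y332F (log2 fold change 0.50, SE 0.10, edgeR adjusted p = 0.0258). The other calls were vas (-0.60, SE 0.17, edgeR adjusted p = 0.0285) and bcd (-0.23, SE 0.08, edgeR adjusted p = 0.0486), both lower in delRGG than in Top3b26 on the log2 scale. In all, 3 of the 8 genes were called between delRGG and Top3b26, with 28.3% of features called (17.3% higher and 10.9% lower), and 1 between delRGG and Y332F, with 2.46% called (1.29% higher and 1.17% lower). Between Y332F and Top3b26 edgeR called 0 of the 8, with 7.27% of features called (3.15% higher and 4.11% lower). There the count at an unadjusted p under 0.05 was 2 (osk and vas) and DESeq2 called 0. The calls rest on single libraries in part. Without Top3b26 replicate 2, without Top3b26 replicate 3 or without delRGG replicate 1, 0 genes were called between delRGG and Top3b26, and without delRGG replicate 3 the count was 6. Those 6 do not include tud, whose log2 difference from Top3b26 was then 0.29 (edgeR adjusted p = 0.0518). The bcd call was also lost without Top3b26 replicate 1 (edgeR adjusted p = 0.199), with total counts alone as scaling (edgeR adjusted p = 0.121) and with no filter on counts (edgeR adjusted p = 0.266). The tud call against Y332F was lost without any 1 of the Y332F replicates or delRGG replicate 1, with edgeR adjusted p between 0.0551 and 0.173, and without delRGG replicate 3 the count was 3. The backgrounds moved too. Leaving out 1 library took the 2897 features called between delRGG and Top3b26 to between 849 and 4821, the 252 between delRGG and Y332F to between 119 and 1566, and the 744 between Y332F and Top3b26 to as few as 406. The highest counts of the first pair of comparisons were those without delRGG replicate 3.

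The share of 1 gene among the 8 does not depend on how libraries were scaled. It does depend on the other 7 genes, most of which were higher in Top3b26 and Y332F than in wild type. A share can therefore fall more than the gene's own level, or fall without it. The mean tud share was 23.0% in wild type and 12.3% in Top3b26, at mean levels of 661 and 487 CPM. The mean vas share was 6.51% in wild type and 5.59% in Y332F, at mean levels of 216 and 223 CPM. The tud count was 21.2% to 25.5% of the summed counts of the other 7 genes in wild type and 18.1% to 21.8% in delRGG. In Top3b26 it was 11.3% to 13.1%, and in Y332F 11.9% to 12.6%. No Top3b26 or Y332F library came near the lowest wild type or delRGG library by this measure. The nos count was 47.0% to 53.0% of the other 7 in wild type, 59.5% to 65.9% in Top3b26, 66.2% to 68.7% in Y332F and 48.4% to 63.2% in delRGG. The vas count was 7.22% to 7.95% of the other 7 in Top3b26, above the wild type range of 5.94% to 6.84%, and 5.32% to 6.01% in Y332F, which reached just into the low end of that range.

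**Figure D3:**
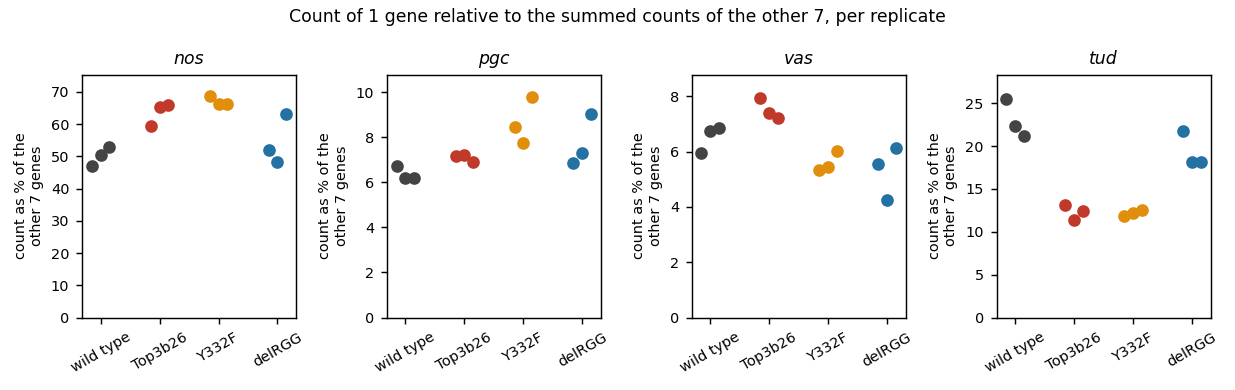
Count of nos, pgc, vas and tud as a percentage of the summed counts of the other 7 genes (vertical axes from 0), with 1 point per library by genotype. The tud points fall into a high group (wild type and delRGG, 18.1% and above) and a low group (Top3b26 and Y332F, 13.1% and below). The other 7 genes also changed, so a point can move without a change in that gene's own level.

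The late embryo markers differed along with these genes in Top3b26 and in Y332F against wild type. A score of the 19 tested markers (mean log2 CPM) was added to the fit as a covariate. The score was 5.70 to 7.44 in wild type, 1.69 to 3.12 in Top3b26 and 2.89 to 3.77 in Y332F. The wild type range met neither of the others, so this fit separated marker level from genotype only weakly, and a lost call decides nothing. With the covariate 0 of the 8 genes were called in Top3b26, in Y332F or in delRGG against wild type. In delRGG against Y332F, tud stayed called (log2 fold change 0.54, edgeR adjusted p = 0.0229). Of all 10238 features, 228 were still called in Top3b26. In Top3b26 the log2 fold change of nos became 0.13, that of pgc -0.07, that of bcd 0.20, that of vas 0.23 and that of gcl 0.076. Those of osk and stau were 0.43 and 0.32. For tud it was -0.56 in Top3b26 (edgeR adjusted p = 0.209) and -0.62 in Y332F (edgeR adjusted p = 0.0697), in both cases further from 0 than without the covariate. Within delRGG, replicate 3 had the lowest marker level (358 CPM) and the highest nos, vas, gcl, pgc, osk and tud of the 3 replicates. Its stau was the lowest of the 3 (433 CPM), and its bcd (183 CPM) lay between the other replicates. Its tud level of 711 CPM was the highest of all 12 libraries, beside a marker level within the range of the Top3b26 and Y332F libraries. Replicate 2 (markers at 1310 CPM), and not replicate 1 (4202 CPM), had the lowest nos, vas, gcl, pgc and tud of delRGG. Replicate 2 also had the highest bcd and stau of the 3, and replicate 1 the lowest osk. The blastoderm genes summed to 157 CPM in delRGG replicate 2, the highest of the 12 libraries. Within wild type, replicate 3 had the highest marker level (8828 CPM) and the highest osk, nos and gcl. That library also had the lowest bcd, tud, pgc and stau of the wild type replicates, with vas between the others. The part of embryo age in these results was not tested.

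**Figure D4:**
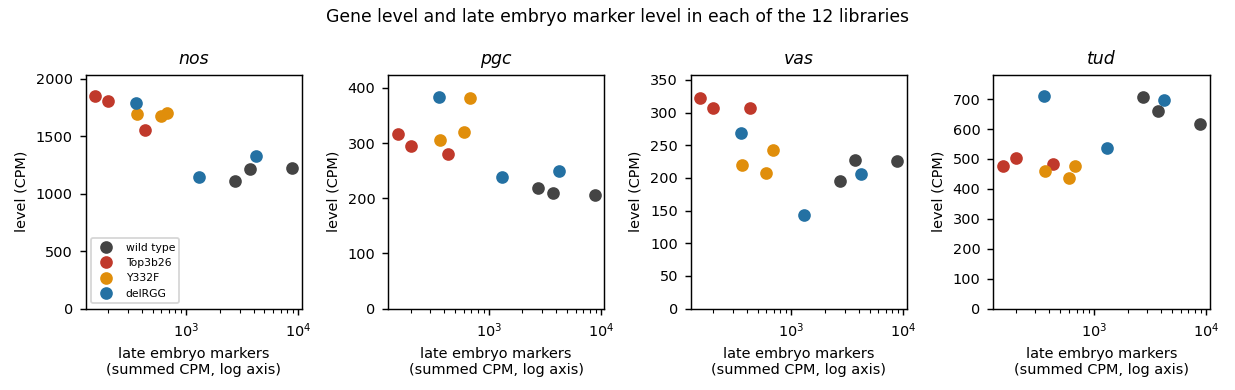
Level of nos, pgc, vas and tud (CPM, vertical axes from 0) against the summed level of 22 late embryo markers (CPM, log axis) in each of the 12 libraries, coloured by genotype. Wild type (dark) sits at 2751 CPM of markers and above, Top3b26 and Y332F at 680 CPM and below, and the delRGG library at 358 CPM has nos and pgc as high as those groups but tud as high as wild type.

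Genes that act with these 8 were taken from 6 lists that cover osk regulation and germ plasm assembly, germ plasm RNAs and germ cell genes, the anterior system, the terminal and dorsoventral maternal systems, and nos regulation with maternal RNA clearance. Of the 85 genes listed, 83 were tested. In Top3b26 31 of them rose and 9 fell, with a median log2 fold change of 0.20 against -0.04 for all features. In Y332F 19 rose and 9 fell (median 0.16), and in delRGG 5 rose and 3 fell (median 0.08). Among all features 23.5% were higher and 33.7% lower in Top3b26, 15.3% and 28.2% in Y332F, and 3.17% and 2.7% in delRGG. The genes cup and BicC could not be tested, with 0 and 1 counts over the 12 libraries. In the annotation CG34310 covers the whole of cup and CG45084 the whole of BicC. These counts therefore cannot be read as absence of the RNAs, and the part of the overlap was not tested.

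Of 24 tested genes of germ plasm assembly, 6 rose and 3 fell in Top3b26, beside 23.5% of all features higher and 33.7% lower, so the count of rises is close to the background. The rises included vls (Valois, a partner of the methyltransferase that modifies Tudor-binding proteins), from 33.0 ± 2.31 to 53.6 ± 4.94 CPM (SD, n = 3, edgeR adjusted p = 0.00363), BicD (a dynein adaptor, log2 fold change 0.42) and tsu (a subunit of the exon junction complex, which acts in osk RNA localisation, 0.45). The falls included Imp (an RNA binding protein that associates with osk RNA, -0.42) and Tm1 (tropomyosin, with a form that acts in osk RNA transport, -0.42). Tm1 is also a muscle gene, and its log2 fold change was 0.14 with the late marker covariate. Its Top3b26 value was -0.25 without wild type replicate 3 (edgeR adjusted p = 0.0734), and the call was also lost without Top3b26 replicate 3 (edgeR adjusted p = 0.0582). The tsu call was lost without wild type replicate 3, without Top3b26 replicate 1 or without Top3b26 replicate 2.

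Among 17 germ plasm RNAs and germ cell genes, 5 rose and 3 fell in Top3b26, with the rises again close to the background of 23.5%. The Piwi-family gene piwi rose in all 3 mutants, with log2 fold changes of 0.53 in Top3b26, 0.64 in Y332F and 0.55 in delRGG (edgeR adjusted p = 0.00829, 0.00892 and 0.0438). The lipid phosphatase gene wun, which acts in germ cell migration, fell in all 3, by 0.46, 0.47 and 0.49 on the log2 scale (edgeR adjusted p = 0.00433, 0.00844 and 0.0168). The ovarian gene otu rose in Top3b26 (0.42) and in delRGG (0.47), with a difference of 0.16 in Y332F that was not called (edgeR adjusted p = 0.151). The delRGG call of piwi was lost without any 1 of the wild type replicates or delRGG replicate 3, and that of wun without wild type replicate 2, wild type replicate 3 or delRGG replicate 3.

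In the anterior list 4 of 8 genes rose and 1 fell in Top3b26, beside 23.5% and 33.7% of all features. The rises were exu, whose product acts early in bcd RNA localisation (log2 fold change 0.59), Vps25, a subunit of an ESCRT complex with a role in it (0.48), swa, which acts in its later steps (0.30), and cad, the target of Bicoid (0.27). The exu call was lost without wild type replicate 1, and the swa call without wild type replicate 1 or 3 or Top3b26 replicate 1 or 2. The fall was wisp, the cytoplasmic poly(A) polymerase that lengthens poly(A) tails of maternal RNAs such as bcd at egg activation. Wild type held wisp at 1338 ± 189.7 CPM and delRGG at 1360.0 ± 84.1 CPM, but its level was 596 ± 33.5 CPM in Top3b26 and 599 ± 97.0 CPM in Y332F (SD, n = 3). As with tud, no library of the first pair of genotypes overlapped the second pair. The log2 fold change was -1.17 in Top3b26 (edgeR adjusted p = 0.000212), -1.16 in Y332F (edgeR adjusted p = 0.000431) and 0.02 in delRGG (edgeR adjusted p = 0.917). The direct differences were 1.19 between delRGG and Top3b26 (edgeR adjusted p = 0.000233) and 1.18 between delRGG and Y332F (edgeR adjusted p = 0.000631). Both falls of wisp were called in each of the 13 alternative fits, and with the late marker covariate they had log2 fold changes of -1.35 in Top3b26 (edgeR adjusted p = 0.0181) and -1.29 in Y332F (edgeR adjusted p = 0.00606).

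Of the 13 terminal genes 6 rose and 1 fell in Top3b26, and of the 13 dorsoventral genes 7 rose and 1 fell, beside the same 23.5% and 33.7%. The rises included fs(1)ph, an eggshell protein of the terminal pathway (log2 fold change 0.64), Sos (0.48) and Dsor1 (0.46), parts of the Ras and MAP kinase cascade, ea, a protease that processes the Toll ligand (0.53), and Tl, the Toll receptor (0.44). The falls were tsl, from 8.66 ± 2.07 to 0.734 ± 0.453 CPM (log2 fold change -3.53, edgeR adjusted p = 0.00192), and pip, from 52.6 ± 18.9 to 9.08 ± 4.70 CPM (log2 fold change -2.53, edgeR adjusted p = 0.00486). Both tsl and pip act in follicle cells of the ovary, and pip is also expressed in the salivary glands of older embryos. With the late marker covariate the log2 fold change of pip was 0.19. Of 10 genes of nos regulation and RNA clearance 3 rose and 0 fell in Top3b26, the rises near the 23.5% of all features. They were png, a kinase of egg activation (0.68), smg, whose protein represses and clears nos RNA outside the germ plasm (0.36), and twin, a deadenylase subunit (0.23), whose call was lost without wild type replicate 3 or Top3b26 replicate 2 or 3.

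The genes whose log2 CPM followed each of the 8 most closely over the 12 libraries were outside these lists. By Pearson's r among 9961 genes searched, the 2 nearest were Mtpbeta and parvin for osk (0.967 and 0.952), Nup75 and Agpat2 for nos (0.988 and 0.977), and CG17746 and Prosalpha4 for bcd (0.965 and 0.956). For vas they were CG3663 and Nadk1b (0.961 and 0.958), for tud eIF4G1 and CG10462 (0.964 and 0.944), and for gcl CG6565 and Dbct (0.969 and 0.966). For pgc they were Mos and CG11257 (0.951 and 0.950), and for stau enok and CG6621 (0.989 and 0.980). These values describe likeness over points that share 4 genotypes and the marker differences above, and were chosen as the highest of many. No gene stood among the nearest 2 of more than 1 of the 8.

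In the immunoprecipitates bcd and stau were measured, each as a pair of transcripts. The table holds only genes with at least 2 transcripts, each of which reached 10 in at least 6 columns, so the missing 6 genes cannot be read as unbound, and no input or untagged sample was used here, so signal is not enrichment. The scaled bcd signal, summed over its transcripts, was 280.4 at the lowest, 344 at the median and 423 at the highest of the 6 Top3b-eGFP samples, and 409.6, 356 and 348 in the 3 Top3b-Y332F-eGFP samples. The scaled stau signal was 1323, 1442 and 1679.7 at the lowest, median and highest in Top3b-eGFP, and 1614, 1662 and 1477 in Top3b-Y332F-eGFP. The groups overlapped for both genes. On the log2(value + 1) scale the Y332F form differed from Top3b-eGFP by 0.12 for bcd (SE 0.16, limma adjusted p = 0.602) and by 0.12 for stau (SE 0.13, limma adjusted p = 0.507). By limma 0 of the 2 genes were called and 0 had an unadjusted p under 0.05, with 29.8% of all 2168 genes called (13% higher and 16.7% lower). Those 645 called genes were 364, 337 and 329 when Top3b-Y332F-eGFP sample 1, 2 or 3 was left out.

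The transcripts differed more between samples than the gene sums did. The transcript FBtr0081665 made up 71.3% to 100% of the bcd signal in Top3b-eGFP and 61.1% to 95.7% in Top3b-Y332F-eGFP. The other, FBtr0081668, was listed at 0 in Top3b-eGFP samples 4 and 6 and made up 4.25% to 38.9% in the Top3b-Y332F-eGFP samples, a wide spread that covers most of the Top3b-eGFP values. For stau, FBtr0086783 made up 69.0% to 87.7% in Top3b-eGFP and 76.0% to 82.0% in Top3b-Y332F-eGFP. No transcript of either gene was called (limma adjusted p between 0.448 and 0.994).

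**Figure D5:**
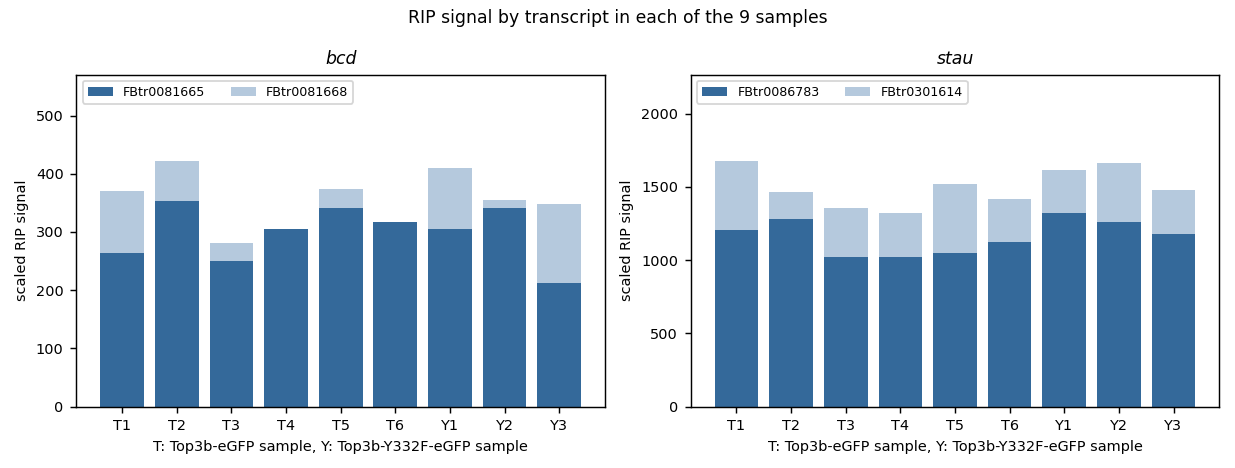
Scaled RIP signal of bcd and stau (vertical axes from 0) in the 6 Top3b-eGFP samples (T) and the 3 Top3b-Y332F-eGFP samples (Y), stacked by transcript. The gene sums of the groups overlap, and the lighter bcd transcript is absent from the bars of T4 and T6, where it is listed at 0.

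Of the listed genes that act with the 8, 32 were in the RIP table, and 4 were called higher and 5 lower in Top3b-Y332F-eGFP than in Top3b-eGFP. Among all genes 29.8% were called, 13% higher and 16.7% lower, so both counts are close to the background. The lower ones were pum, the RNA binding partner of Nanos (log2 difference -1.33, limma adjusted p = 0.00453), Not1 (-1.06), spir (-0.79), hb, the RNA that Nanos represses (-0.60), and brat, a further partner in that repression (-0.49). The higher ones were drk (0.92), rl (0.73), Tm1 (0.67) and sqd (0.57). None of these 9 was called on the deposited values without scaling (limma adjusted p between 0.0885 and 0.666), and pum and spir alone were called with the replicate number as a block. Top3b-eGFP samples 4, 5 and 6 have no same-numbered Top3b-Y332F-eGFP sample, so with the block they added nothing to the estimated difference. The calls of Tm1, sqd, hb, drk and brat were also lost without at least 1 of the Top3b-Y332F-eGFP samples 1, 2 and 3 or the Top3b-eGFP samples 4, 5 and 6 (limma adjusted p between 0.0536 and 0.147). When the 2 samples matched to their columns by a bare number were left out, 6 of the 9 calls were lost (Tm1, sqd, hb, rl, drk and brat), with rl at 0.49 (limma adjusted p = 0.0610), and 216 of all genes were called.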

How the data were processed

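Total RNA was measured in 12 embryo samples (4 genotypes, 3 replicates each) and RIP in 9 samples. The labels' protocols give Trizol extraction, the CORALL total RNA kit of Lexogen and paired-end sequencing. For the RIP samples the labels name polyA RNA, although the kit named is one for total RNA, so the RNA selection there is uncertain. Per the submitters' processing notes, bcl2fastq, HISAT2, featureCounts and DESeq2 were used, with no roles or versions. The genome build, annotation, strand setting and treatment of reads that map more than once are not given in the sources used here. The authors deposited the total RNA values as raw counts of reads per feature. Their RIP table, as deposited, gives a signal per transcript that the authors normalized in a way that is not given. Of its value columns, 3 could be tied to no sample and are not used here, and 1 column of each tagged form was matched to its sample by a bare number.

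The test of the counts was run in edgeR 4.0.16 under R 4.3.3 (filterByExpr with a minimum count of 10, TMM, quasi-likelihood test over all 12 samples with genotype as the factor), with Benjamini-Hochberg adjustment over 10238 features and calls at an adjusted p under 0.05. The SE is the log2 fold change divided by the square root of F. RIP transcripts were summed per gene, samples were brought to 1 scale by the median over genes of the ratio to the geometric mean, and log2(value + 1) of genes with a mean of at least 10 was tested with limma 3.58.1. This scale understates changes of low genes, and the reads behind the signal are unknown. The scripts were tested on simulated data. Alternatives were DESeq2 1.42.0, other scalings and filters, a late marker covariate, a replicate block, the compared groups alone and each replicate left out. Gene overlaps come from a RefSeq table of another annotation source and name neighbours only. Plots were drawn with matplotlib 3.10.9.

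The 8 genes, the lists, the markers and the tests were chosen with earlier results of these data known. The genes named are the 8, their 2 nearest by Pearson's r, and from each list up to 3 called genes with the highest and 2 with the lowest log2 fold change in Top3b26, plus those called in RIP. Of the genes this rule gives, 1 is not reported here. Intervals and SE cover neither embryo age nor collection.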

Additional observations from a re-analysis of the deposited data

How the results depend on the processing

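Of 17 called values of the 8 genes, 220 of 221 alternative values kept the direction and 172 were still called. Of 18 values not called (11 against wild type, 2 in RIP and the 5 between mutants with an unadjusted p under 0.05), 229 of 242 kept the direction and 18 were called. With the late marker covariate 0 genes were called in Top3b26 and in Y332F against wild type and in delRGG against Top3b26. The tud call in delRGG against Y332F was kept (0.54, edgeR adjusted p = 0.0229). The marker score itself separated wild type from Top3b26 and Y332F, so the lost calls against wild type decide nothing. The covariate turned pgc (-0.071), Tm1 (0.14) and pip (0.19) in Top3b26, vas (-0.17), gcl (-0.031), Tm1 (0.044) and pip (0.026) in Y332F, and gcl (-0.0087) and wisp (-0.047) in delRGG, all log2 fold changes against wild type. DESeq2 called 2 in delRGG against wild type and 2 in delRGG against Y332F. Fitting the compared groups alone gave 1 call in Y332F against Top3b26 (vas), 0 in delRGG against Top3b26, 0 in delRGG against Y332F, and a tud value of 0.027 in delRGG against wild type. Without a filter on counts, delRGG against Y332F had 0 calls and tud in delRGG was 0.035. With total counts alone as scaling, vas in Y332F was -0.042 and wisp in delRGG -0.011, and the median log2 fold change of all features in Top3b26 went from -0.04 to -0.13. The cause of these changes was not tested.

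Leaving out 1 replicate at a time gave 3 to 6 calls in Y332F against wild type, 0 to 6 in delRGG against Top3b26 and 0 to 3 in delRGG against Y332F. It moved the log2 fold change of vas between -0.013 and 0.15 in Y332F and between -0.27 and 0.14 in delRGG, tud in delRGG between -0.078 and 0.094, and wisp in delRGG between -0.091 and 0.15. Same-numbered replicates did not pair: the mean correlation of their deviations was between -0.50 and 0.28 over the 6 comparisons, and no comparison had all pairs above 0.1. With the replicate block 8, 6, 1, 0, 4 and 1 of the 8 genes were called, the first 3 counts being those of Top3b26, of Y332F and of delRGG against wild type, the next 2 those of Y332F and of delRGG against Top3b26, and the last that of delRGG against Y332F. In RIP the block called 0 of 2 genes and 114 of 2168 in all, against 645 without it, and the deposited values without scaling gave 25. Top3b-eGFP samples 4, 5 and 6 have no same-numbered counterpart, so the block left them out of the estimated difference. Same-numbered RIP samples did not pair either (r of -0.095, -0.11 and 0.021). The lower count with the block therefore also rests on fewer samples.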
